A study of Mus musculus with 8 samples.

Results

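Transcript levels of 10 enzymes of lysine, threonine, glycine and serine metabolism were followed in individual mouse induced pluripotent stem cell (iPSC) clones with and without functional PIWI proteins. The genes are Aass, Tdh, Gcat, Gldc, Shmt1, Shmt2, Phgdh, Psat1, Psph and Mthfd2, each represented by the RefSeq record of its symbol with the highest mean count, out of 21427 gene symbols and 27052 records in the table. Aass was chosen by its difference in normalized counts between the genotypes in these same libraries, so its levels are given as a description without a test. The other 9 were chosen for their place in the metabolism of mouse pluripotent cells, and all 10 passed the filter for low counts (5 or more reads in 4 or more libraries) that left 16235 records for testing.

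The iPSCs came from mouse embryonic fibroblasts (MEFs) of mixed C57BL/6-s129 background that carried an Oct4-GFP reporter. Triple knockout (TKO) MEFs lacked functional *Miwi*, *Mili* and *Miwi2*, with the *Miwi* coding region replaced by GFP, exons of *Mili* deleted and stop codons placed in *Miwi2*. Control (Ctrl) MEFs came from littermates, described as triple heterozygous in the study's methods and as wild type or heterozygous in its legends. Both were reprogrammed with retroviruses for OCT4, SOX2, KLF4 and c-MYC, and GFP-positive colonies were picked onto mitomycin C-treated MEF feeders in serum and LIF medium that contained non-essential amino acids. Each library is 1 clone, with Ctrl clones 33, 34, 41 and 43 and TKO clones 35, 37, 47 and 48, and the embryo behind each clone is not given. The clone numbers of both genotypes fall in the thirties and the forties, and these sets are called clone series here. What the numbers stand for is not stated, nor which clones, if any, had valproic acid during reprogramming.

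Mouse embryonic stem cells are known to take much of their one-carbon supply from threonine. Threonine dehydrogenase (Tdh) oxidises threonine in mitochondria, Gcat splits the product into glycine and acetyl-CoA, and the glycine cleavage system, whose decarboxylase is Gldc, passes a carbon of glycine to folate. Serine is the other large donor: Phgdh, Psat1 and Psph make it from a glycolytic intermediate, Shmt1 in the cytosol and Shmt2 in mitochondria turn it into glycine and a folate-bound carbon, and Mthfd2 oxidises that carbon inside mitochondria. Aass encodes the enzyme that carries out the opening steps of lysine breakdown by way of saccharopine.

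The promoters of 3 of the genes are shown, because Aass was the gene with the large difference between the genotypes, and Gldc and Shmt2 were the 2 enzymes whose genotype difference shifted most between the series, with opposite signs in them. Each line gives the 250 bases before the gene's start in RefSeq, 5′ to 3′ on the strand of the gene, with CpG sites in capitals. Sequences were taken from RefSeq (GRCm38.p6) and placed in mm9 by their only exact match, at chr6:23082987-23083236 for Aass, chr19:30249932-30250181 for Gldc and chr10:126959501-126959750 for Shmt2, all on the minus strand and outside annotated exons.
Aass: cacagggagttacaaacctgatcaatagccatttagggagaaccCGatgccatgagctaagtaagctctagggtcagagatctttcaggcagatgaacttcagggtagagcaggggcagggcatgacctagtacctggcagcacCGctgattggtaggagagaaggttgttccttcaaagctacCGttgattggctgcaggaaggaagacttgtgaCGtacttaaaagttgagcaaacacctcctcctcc
Gldc: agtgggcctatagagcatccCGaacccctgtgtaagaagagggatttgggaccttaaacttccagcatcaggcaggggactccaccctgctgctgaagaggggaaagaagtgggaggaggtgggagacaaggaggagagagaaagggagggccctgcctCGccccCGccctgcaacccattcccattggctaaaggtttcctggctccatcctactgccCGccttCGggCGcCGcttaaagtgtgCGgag
Shmt2: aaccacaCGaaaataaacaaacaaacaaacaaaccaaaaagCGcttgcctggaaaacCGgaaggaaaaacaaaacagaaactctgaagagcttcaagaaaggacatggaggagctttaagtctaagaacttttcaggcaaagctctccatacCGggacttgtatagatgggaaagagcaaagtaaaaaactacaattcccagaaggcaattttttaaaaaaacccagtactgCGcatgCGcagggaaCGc
The windows held 4 CpG sites in Aass, 8 in Gldc and 7 in Shmt2, against a median of 6 over 32841 RefSeq promoter windows of the same length. The motif CCAAT, searched on both strands, occurred 2 times in Aass, 1 time in Gldc and 0 times in Shmt2. The window of Mthfd2, whose signs also differed between the series, reaches into its annotated exon and is not printed, and it held 7 CpG sites and the motif 3 times. The motif also occurred 2 times in Phgdh, in Psph and in a window of Psat1, 1 time in Shmt1, and 0 times in Gcat and another window of Psat1. Over all windows 33.9% held it and 10.1% held it at least 2 times. A promoter sequence was matched for 9 of the 10 genes, all but Tdh.

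The Ctrl libraries held 8983203 to 24688324 counts and the TKO libraries 24593995 to 52457455. In the test used throughout, edgeR's quasi-likelihood test of TKO against Ctrl with Benjamini-Hochberg adjustment, 39 records (0.24%) passed at an adjusted p under 0.05, of which 14 (0.0862%) were higher and 25 (0.154%) lower in TKO iPSCs. Such records are named as called below. When the model also held the clone series, 926 (5.7%) did. All pairs of libraries of a genotype differed beyond sampling noise, and TKO 35 with TKO 37 and Ctrl 41 with Ctrl 43 were the closest. The model with the series takes its spread largely from the 2 clones of each genotype and series, these close pairs among them. It counts every clone as independent, so its p-values may be too small if clones share an embryo. Counts of whole *Piwi* records do not show loss of function, with 758 to 1028 normalized counts of *Mili* in Ctrl and 3845 to 10084 in TKO iPSCs, 487 to 769 and 936 to 2862 of *Miwi2*, and 8.13 to 28.8 and 2.41 to 4.53 of *Miwi*. Markers of pluripotent cells summed to between 119833 and 167086 counts in Ctrl and between 147043 and 159973 in TKO iPSCs, with Esrrb, which has 2 records, under 5 reads in all libraries and Pou5f1 the 1 marker of 9 tested that was called, lower. Pou5f1 averaged 26087 in Ctrl and 17075 in TKO clones. Dppa5a, the largest part of each sum, averaged 58871 and 82346 with overlap, so similar sums do not show that single markers were alike. The 12 fibroblast and feeder markers summed to 24751 to 64041 and 21271 to 39054, highest in Ctrl 33, and of these Pdgfra was at 1.70 to 15.3 and Pdgfrb at 1.44 to 8.01 normalized counts. The sum in Ctrl 33 was mostly Col1a1 (25806) and Col1a2 (21099). Ctrl 33 was the highest clone for these, Thy1, Twist2 and Fbn1, but TKO 47 exceeded it for all the other markers of the list. The median log2(TKO/Ctrl) of the 12 was -1.22 for the thirties and 0.56 for the forties clones. Endoderm and liver markers summed to 439 to 857 and 529 to 783. How reads matching several records were counted is not given, and symbols with 2 records were lower in this table than those with 1. Of 2166 symbols with 2 records 3.79% exceeded 1000 normalized counts summed over their records, against 24.8% of 18252 with 1 record, so the levels of Esrrb, Pdgfra, Pdgfrb, Gcat and Aldh7a1, which have 2, may be understated. In such bulk RNA, fewer cells of a type and less RNA per cell cannot be told apart.

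Aass was at a small fraction of its Ctrl level in every TKO clone. Counts scaled by size factors (normalized counts) were 748 in Ctrl 33, 537 in Ctrl 34, 722 in Ctrl 41 and 371 in Ctrl 43, against 33.4 in TKO 35, 31.9 in TKO 37, 35.1 in TKO 47 and 41.9 in TKO 48. The groups were far apart, and the TKO clones lay close together while the Ctrl clones were spread. Over all records 4.23% had no overlap with the TKO clones lower. The mean was 594 ± 176 in Ctrl and 35.5 ± 4.43 in TKO clones (SD, n = 4 each), so that the TKO level was 5.98% of the Ctrl level, or 16.7-fold lower. The fitted log2(TKO/Ctrl), called the log2 difference below, was -4.06 (standard error, SE, 0.26), with -4.29 between the clones of the thirties and -3.82 between those of the forties series. It ran from -4.23 to -3.94 when each clone was left out in turn. The TKO values rest on 35 to 66 reads per library and the Ctrl values on 276 to 695, so a remainder of Aass reads was counted in each TKO clone.

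Aass (NM_013930) lies on the minus strand of mm9 chromosome 6 from 23022173 to 23082986, on a chromosome without a targeted *Piwi* gene. The tested genes within 1 Mb differed far less. Ptprz1, a receptor phosphatase gene 19.3 kb away, had 104 and 79.3 normalized counts in Ctrl and TKO iPSCs (log2 difference -0.40, SE 0.24, edgeR adjusted p = 0.449). Cadps2, Fam3c and Wnt16, farther off, had log2 differences of 0.13, -0.12 and -0.59, with adjusted p from 0.489 to 0.917.

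**Figure D1:**
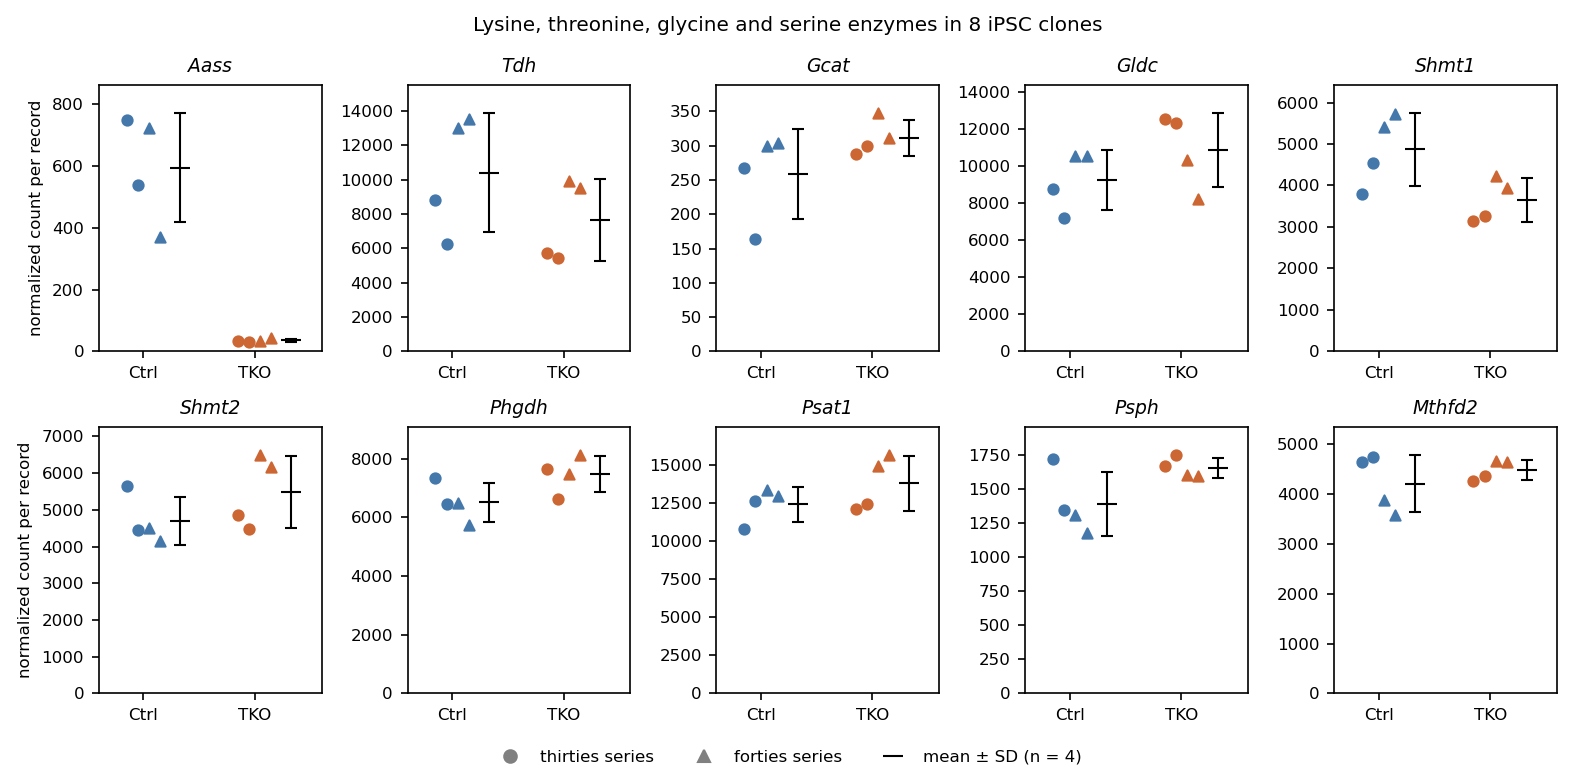
Normalized counts of the 10 genes (vertical axes, linear, from 0) in each Ctrl and TKO iPSC clone, with separate symbols for the thirties and forties series and the mean and SD of 4 clones per genotype. The TKO clones of Aass lie between 31.9 and 41.9, below all Ctrl clones, while the genotypes overlap for each of the other 9 genes.

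The other genes of lysine breakdown had much smaller differences than Aass. Aldh7a1, whose product acts next in the pathway and which is named here after its values were seen, has 2 records, so its level is uncertain. Its more abundant record averaged 38.3 ± 5.42 normalized counts over the Ctrl clones and 38.4 ± 12.6 over the TKO clones (SD, n = 4 each; log2 difference 0.03, SE 0.28, edgeR adjusted p = 0.971). Of the 13 tested genes of lysine degradation other than Aass, 0 were called by edgeR's quasi-likelihood test or limma-voom, 1 by DESeq2 and 1 by edgeR's exact test. At an unadjusted p under 0.05 in the quasi-likelihood test 1 gene was higher and 0 were lower, where 1205 and 1200 of all 16235 records were. The median log2 difference of the 13 genes was 0.10, against -0.01 over all tested records.

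That gene, also the one called by DESeq2 and the exact test, was Echs1, which encodes the mitochondrial enoyl-CoA hydratase shared by lysine, fatty acid and valine breakdown. It had 2167, 2094, 2083 and 2216 normalized counts in Ctrl 33, 34, 41 and 43, and 2966, 3043, 2706 and 3269 in TKO 35, 37, 47 and 48. All TKO clones lay above all Ctrl clones, as for 4.1% of all records. The log2 difference was 0.49 (SE 0.09), with an adjusted p of 0.0696 in edgeR's test and 0.0156 with clone series added. Of 7 tested transporters of lysine and other cationic amino acids, Slc7a6, a y+L transporter, was lower with the series in the model, from 1774 ± 462 to 1152 ± 272 counts (-0.63, adjusted p = 0.262 without and 0.0196 with the series in edgeR).

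Tdh was among the most abundant of the 10 transcripts, and its level differed more between the clone series than between the genotypes. It had 8819.7 normalized counts in Ctrl 33, 6272 in Ctrl 34, 12981 in Ctrl 41 and 13534 in Ctrl 43, and 5708, 5441, 9908 and 9506 in TKO 35, 37, 47 and 48. Within each series both TKO clones lay below both Ctrl clones, as for 11.5% of all records, but the TKO clones of the forties series exceeded the Ctrl clones of the thirties. The mean was 10402 ± 3465 in Ctrl and 7641 ± 2394 in TKO clones (SD, n = 4), a log2 difference of -0.45 (SE 0.28, edgeR adjusted p = 0.461). In the model that included clone series, Tdh was 0.81 higher on the log2 scale in the forties than in the thirties series (SE 0.10, adjusted p = 0.00161), where 9.84% of all records were called higher in the forties. In that model the genotype difference was -0.44 (SE 0.10), with an adjusted p of 0.0378. It was -0.43 for the thirties and -0.45 for the forties clones.

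That call of Tdh depended on single clones. It was kept without Ctrl 33, Ctrl 34 or TKO 48 and lost without any of Ctrl 41, Ctrl 43, TKO 35, TKO 37 and TKO 47, with adjusted p from 0.0107 to 0.124 in edgeR. With the closest pairs of libraries summed to 1 library each, in the model without the series, the log2 difference was -0.18 (edgeR adjusted p = 0.972). That sum left mostly thirties libraries in Ctrl and mostly forties libraries in TKO, so it does not test the call made with the series. Tdh (NM_021480) lies on the minus strand of chromosome 14 from 64111184 to 64127929, 6.64 Mb from *Mili*. Of 15 tested records within 1 Mb, Sox7, an endoderm transcription factor gene, was called with the series in the model (87.1 and 42.0 counts, log2 difference -1.07, adjusted p = 0.227 without and 0.0284 with it in edgeR). In that model 5.7% of all records were called. Part of the Tdh locus overlaps the annotated gene Gm17232 over 6174 bases of the whole gene spans. Whether their exons overlap was not checked. Because the library kit does not mark strand, reads from any shared exon could not be told apart.

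Gcat (NM_013847, chromosome 15 from 78861304 to 78873988) is the partner of Tdh in threonine breakdown. It has 2 records, of which the other held 2 reads in all libraries together, so its level is uncertain and is compared only between clones. It had 268, 164, 300.1 and 304 normalized counts in Ctrl 33, 34, 41 and 43, and 288, 299, 348 and 311 in TKO 35, 37, 47 and 48. Ctrl 34 was the low clone. Within each series both TKO clones were above both Ctrl clones, as for 11.2% of all records, and across series the groups overlapped. The log2 difference was 0.26 (SE 0.21, edgeR adjusted p = 0.562), and 0.10 to 0.35 when each clone was left out. Of 52 tested records within 1 Mb of Gcat, the linker histone gene H1f0, 1.61 kb away, was called with the series in the model (1164 and 1695 counts, log2 difference 0.55, adjusted p = 0.227 without and 0.0352 with it in edgeR). Over all records 5.7% were called in that model. Tha1 and Sdsl, the other tested genes of threonine catabolism, averaged 17.5 and 5.48 counts over the Ctrl clones, 25.1 and 6.27 over the TKO clones, with edgeR adjusted p of 0.489 and 0.792.

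For Gldc the genotype difference had opposite signs in the 2 series. In the thirties series it had 8757 and 7178 normalized counts in Ctrl 33 and 34 and 12538 and 12307 in TKO 35 and 37. In the forties series it had 10514 and 10522 in Ctrl 41 and 43 and 10301 and 8246 in TKO 47 and 48. Both TKO clones were thus above both Ctrl clones in the thirties and below them in the forties series, and 9.65% of all records separated in opposite directions in this way. In a model with 4 groups of genotype and series, the log2 difference was 0.64 (SE 0.13, adjusted p = 0.0168) in the thirties, where 4.83% of records were called higher, and -0.18 (SE 0.13, adjusted p = 0.467) in the forties series. The fibroblast and feeder markers also had opposite signs in the series, with the medians given above, and their part in the pattern of Gldc was not tested. The difference between the series was -0.82 (SE 0.18) and did not pass in edgeR's interaction test (adjusted p = 0.0623), in which 1.3% of records were called. DESeq2 gave an adjusted p of 0.00459, and leaving out each clone in turn gave 0.0162 to 0.271 in edgeR. Over all 8 clones the log2 difference was 0.23 (SE 0.16, adjusted p = 0.515). Gldc (NM_138595) lies on chromosome 19 from 30172939 to 30249908 and overlaps the annotated gene Gm6635 over 378 bases.

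Among the other proteins of the glycine cleavage system, Gcsh, which carries the lipoyl group, averaged 4949 ± 553 normalized counts over the Ctrl clones and 5006 ± 813 over the TKO clones (SD, n = 4; log2 difference 0.02, edgeR adjusted p = 0.970), with -0.10 for the thirties and 0.11 for the forties clones. The sign of the Gcsh change flipped between alternatives and is not settled. The 4 tested genes of the system had adjusted p from 0.358 to 0.970.

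**Figure D2:**
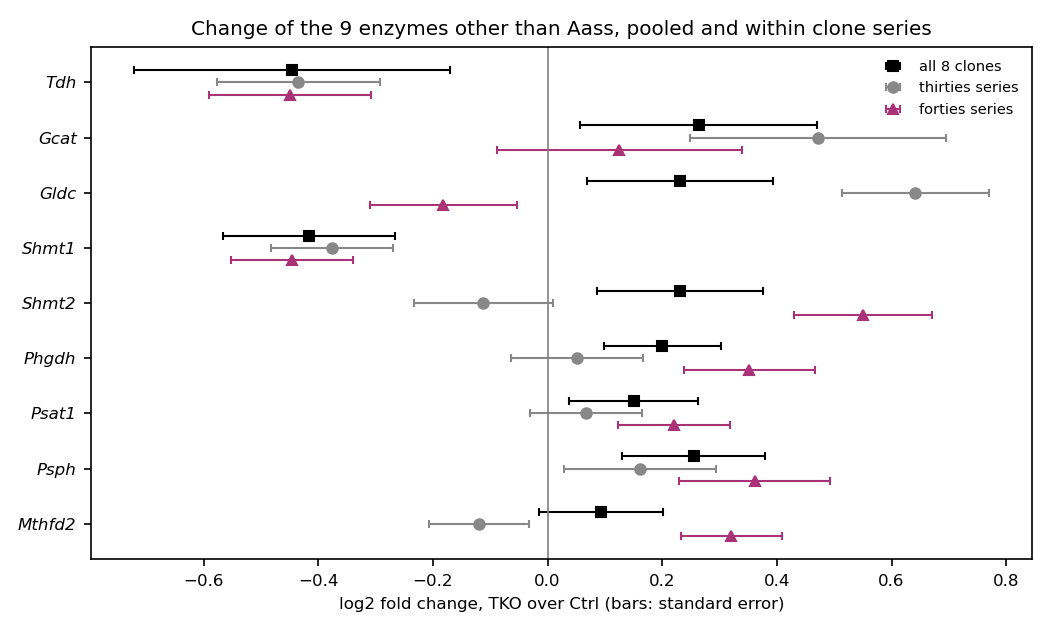
Log2(TKO/Ctrl) of the 9 enzymes other than Aass over all clones and within the thirties and forties series, with bars of 1 standard error (SE) and the vertical line at 0. They lie between -0.45 and 0.26 over all clones, and Gldc, Shmt2 and Mthfd2 have opposite signs in the 2 series.

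The cytosolic and the mitochondrial serine hydroxymethyltransferase, Shmt1 and Shmt2, had log2 differences of -0.42 and 0.23, and neither passed over all 8 clones. Shmt1 had 3795, 4536, 5418 and 5727 normalized counts in Ctrl 33, 34, 41 and 43, and 3154, 3273, 4232 and 3948 in TKO 35, 37, 47 and 48. Within each series both TKO clones were below both Ctrl clones, as for 11.5% of all records, and across series the groups overlapped. The mean was 4869 ± 876 in Ctrl and 3652 ± 522 in TKO clones (SD, n = 4), a log2 difference of -0.42 (SE 0.15, edgeR adjusted p = 0.276). With clone series added the adjusted p was 0.0252, and Shmt1 was 0.38 higher in the forties than in the thirties series (SE 0.08, adjusted p = 0.0113). As for Tdh, the genotype call in that model was kept without Ctrl 33, Ctrl 34 or TKO 48, and leaving out any of the remaining 5 clones ended it (adjusted p from 0.0152 to 0.105). With the closest pairs summed, in the model without the series, the log2 difference was -0.29 (edgeR adjusted p = 0.922). The series were then unbalanced between the genotypes as for Tdh, so that fit does not test the call either.

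Shmt2 had 5642, 4459, 4499.9 and 4145 normalized counts in Ctrl 33, 34, 41 and 43, and 4852, 4485, 6492 and 6167 in TKO 35, 37, 47 and 48. The TKO clones of the forties series were the highest, Ctrl 33 came next, and the groups overlapped. The log2 difference was 0.23 (SE 0.15, edgeR adjusted p = 0.468), with -0.11 for the thirties and 0.55 for the forties clones. The difference between the series was 0.66 (SE 0.17, adjusted p = 0.0892 in edgeR's interaction test, 0.0248 in DESeq2, and 0.0130 to 0.335 when each clone was left out in edgeR). Without Ctrl 33, which also had the highest sum of fibroblast and feeder markers (mostly Col1a1 and Col1a2), the genotype difference was 0.33 (adjusted p = 0.274), and the part of those markers in it was not tested.

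Per kilobase, the ratio of Shmt2 to Shmt1 was 1.35 in Ctrl 33, 0.894 in Ctrl 34, 0.756 in Ctrl 41 and 0.658 in Ctrl 43, and 1.40, 1.25, 1.40 and 1.42 in TKO 35, 37, 47 and 48. The mitochondrial form thus led in all TKO clones and in Ctrl 33, and the cytosolic form led in the other Ctrl clones. The mean ratio was 0.915 ± 0.307 in Ctrl and 1.37 ± 0.0802 in TKO clones (SD, n = 4), with overlap through Ctrl 33. Shmt1 (NM_009171, chromosome 11 from 60601606 to 60625220) overlaps Smcr8 over 184 bases and SNORA25 over 126, and Shmt2 (NM_028230, chromosome 10 from 126954195 to 126959491) overlaps Ndufa4l2 over 14 bases. These are overlaps of whole gene spans, and whether exons are shared, which would mix reads, was not checked.

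Mthfd2, which takes up the folate-bound carbon in mitochondria, also had opposite signs in the series. It had 4629 and 4743 normalized counts in Ctrl 33 and 34 and 4264 and 4365 in TKO 35 and 37, and then 3875 and 3570.1 in Ctrl 41 and 43 and 4660.0 and 4638 in TKO 47 and 48. Both TKO clones were below both Ctrl clones in the thirties and above them in the forties series, and 9.65% of all records separated in opposite directions. The signs were the reverse of Gldc and the same as those of the fibroblast and feeder markers, whose part was not tested. The log2 difference was -0.12 and 0.32 in the series, a difference of 0.44 (SE 0.12, adjusted p = 0.110 in edgeR's interaction test), and 0.09 over all clones (SE 0.11, adjusted p = 0.703). The TKO clones of Mthfd2 were close together, at 4482 ± 198 counts against 4204 ± 572 in Ctrl (SD, n = 4). Mthfd2 (NM_008638) lies on chromosome 6 from 83255685 to 83267600, more than the 1 Mb window away from Aass.

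The enzymes of serine synthesis had log2 differences of 0.15 to 0.25, and none passed edgeR's test with or without the series over all clones. Phgdh, the entry enzyme, had 7338, 6458, 6499 and 5746 normalized counts in Ctrl 33, 34, 41 and 43, and 7657, 6633, 7499 and 8127 in TKO 35, 37, 47 and 48 (log2 difference 0.20, SE 0.10, edgeR adjusted p = 0.387). All but TKO 37 lay above the highest Ctrl clone. Psat1, the aminotransferase of the pathway, had 10754, 12604, 13309 and 12913 counts in the Ctrl clones and 12092, 12389.5, 14932 and 15619.9 in the TKO clones in the same order (0.15, SE 0.11, adjusted p = 0.545). The TKO clones of the forties series exceeded all Ctrl clones, and those of the thirties did not. Phgdh (NM_016966) lies on chromosome 3 from 98117093 to 98143913 and Psat1 (NM_177420) on chromosome 19 from 15979168 to 16021827, where it overlaps Gm3329 over 556 bases.

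Psph, the phosphatase that releases serine, had 1720.1, 1345, 1309.6 and 1173 normalized counts in Ctrl 33, 34, 41 and 43, and 1669, 1746, 1599 and 1590.3 in TKO 35, 37, 47 and 48. Ctrl 33, the clone with the highest sum of fibroblast and feeder markers (mostly Col1a1 and Col1a2), lay among the TKO clones and the other Ctrl clones below them. The log2 difference was 0.25 (SE 0.13, edgeR adjusted p = 0.376), or 0.37 without Ctrl 33 (adjusted p = 0.168). With the series in the model the edgeR adjusted p was 0.142, and 0.0420 to 0.309 when each clone was left out. It was under 0.05 only without Ctrl 33, and the part of the fibroblast and feeder markers was not tested. Psph (NM_133900) lies on chromosome 5 from 130271434 to 130293129, 1.01 Mb from *Miwi*, and Mmp17, a matrix metalloproteinase gene 157 kb from Psph, was called with the series in the model (417 and 638 counts, log2 difference 0.62, edgeR adjusted p = 0.0251). Mmp17 was 1 of 21 tested records within 1 Mb, where 5.7% of all records were called in that model.

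Apart from Aass, 0 of the 9 enzymes were called by edgeR's quasi-likelihood test. At an unadjusted p under 0.05 in that test 1 (Shmt1) was lower, where 1200 of all 16235 records were lower. The exact test of edgeR, limma-voom and DESeq2 also called 0. With the series in the model 2 were called, Tdh and Shmt1, both lower, where 3.1% of all records were called lower. The median log2 difference of the 9 was 0.20, against -0.01 over all tested records, and 0.05 for the thirties and 0.22 for the forties clones. The SE of these log2 differences ran from 0.10 to 0.28, and a p that missed the threshold does not show that the genotypes were alike.

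Levels can be compared between genes only per kilobase of transcript. On that scale Psat1 was the highest, with 5822 ± 531 normalized counts per kilobase in Ctrl and 6462 ± 836 in TKO clones (SD, n = 4), followed by Tdh with 5474 ± 1824 and 4021 ± 1260.0 and Phgdh with 3479.6 ± 348 and 3997 ± 333. Psat1 and Tdh overlapped in the Ctrl clones, where each led in 2 of 4, and Psat1 was above Tdh in all 4 TKO clones, where Tdh and Phgdh overlapped. Gldc, Shmt1, Shmt2 and Mthfd2 came next at 2031 to 2452 in Ctrl, with each neighbour in that order overlapping. In TKO iPSCs the order was Gldc, Shmt2, Mthfd2 and Shmt1, from 2878 to 1761, and Shmt1 lay below Mthfd2 in all 4 clones. Psph had 892 ± 151 and 1062 ± 46.7. Aass was the lowest of the 9 genes with 1 record, at 161 ± 47.6 in Ctrl and 9.61 ± 1.20 in TKO clones. Gcat, with 2 records, was left out of this order.

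Over the 8 clones the 9 enzymes other than Aass were also compared with each other on the log2(normalized count + 1) scale. Of 36 pairs, 1 passed after adjustment of the Pearson p. Shmt1 and Psph ran against each other, with a Pearson r of -0.92 (exact permutation p = 0.000546, adjusted p = 0.0196, n = 8 clones) and a Spearman rho of -0.90 (exact permutation p = 0.00456, adjusted p = 0.164). Without Ctrl 41 and Ctrl 43, the clones farthest from the median of Shmt1, r was -0.77, and after centring each series it was -0.91. The clones share their genotype and series in these comparisons, which the permutations did not take into account. Values were not centred by genotype, so a difference between the genotypes enters r.

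The records whose levels over the clones were most like those of Aass, among 13006 with a mean of at least 20 counts, were Gm12191 (Pearson r 0.986), F3, which encodes tissue factor (0.985), AI662270 (0.981), the potassium channel gene Kcnh4 (0.980) and NR_033599 (0.980). Their Ctrl and TKO means were 1252 and 8.77, 909 and 415, 1752 and 196, 38.4 and 18.9, and 257 and 24.1 normalized counts, and each lay lower in the TKO clones. Those most like Tdh were Tmem88 (0.995), Trh, the gene of thyrotropin-releasing hormone (0.994), Phldb1 (0.991), the LIM-domain gene Fhl2 (0.988) and the epithelial transcription factor gene Grhl2 (0.988). Their means ran from 127 to 6897 in Ctrl and from 78.2 to 2257 in TKO iPSCs. These are descriptions over 8 clones, and the likeness was not tested. The Aass clones fall into separate clusters by genotype, the gap by which Aass was chosen, so r with Aass mostly reflects such a gap.

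Beyond the 10 enzymes, 133 genes of the connected pathways were tested, and edgeR called 0 of them. At an unadjusted p under 0.05 in edgeR's test, 16 were higher and 6 lower, where 1205 and 1200 of all 16235 records were. DESeq2 called 6, edgeR's exact test 4 and limma-voom 0, with the totals of DESeq2 and the exact test over all records given at the end. With clone series added 7 were higher and 5 lower, where 2.6% and 3.1% of all records were. Of these 12 calls, that of Mat2a was kept without each clone in turn, those of Bhmt and Dmgdh were lost only without TKO 37, and that of Ddit3 without TKO 35 or TKO 37. Those of Echs1, Slc7a6, Glyatl3, Bhmt2, Pfas, Cars, Slc38a2 and Grhpr were each lost without TKO 35, without TKO 37 and without at least 1 further clone. The median of the 133 was 0.06 and that of all records -0.01.

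**Figure D3:**
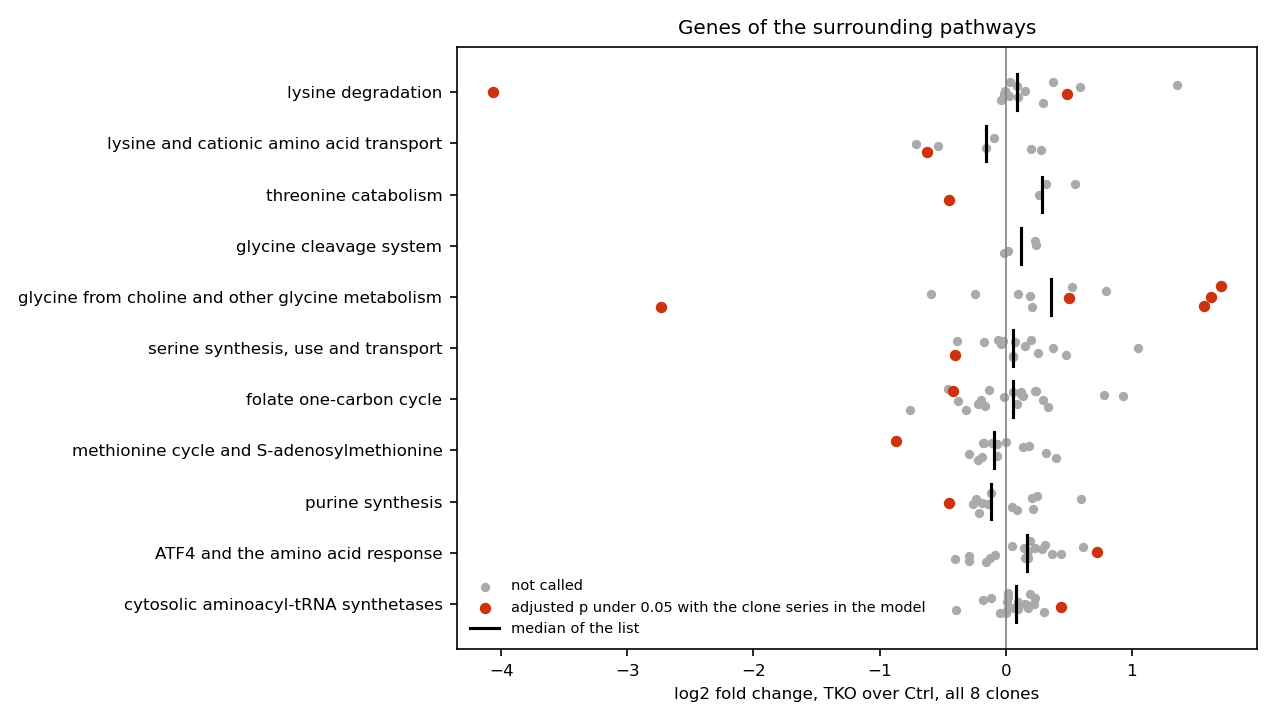
Log2(TKO/Ctrl) of each tested gene in 11 pathway lists (one row per list), with a bar at the median of each list and the genes called with clone series added in red. The medians lie between -0.15 and 0.36, and Aass lies apart at -4.06.

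The glycine list held the most calls in the model that included series, 4 higher and 1 lower of 12, where 2.6% and 3.1% of all records were. Choline yields glycine by way of betaine, which Bhmt demethylates, and of dimethylglycine, the substrate of Dmgdh, while Bhmt2, a paralog of Bhmt, takes its methyl group from S-methylmethionine. Bhmt had 46.0, 96.5, 10.4 and 11.2 normalized counts in Ctrl 33, 34, 41 and 43, and 194, 217, 60.1 and 44.5 in TKO 35, 37, 47 and 48. Within each series both TKO clones were above both Ctrl clones, as for 11.2% of all records, and the thirties series was the higher. The log2 difference of Bhmt was 1.70 (SE 0.76, adjusted p = 0.336 without and 0.0110 with the series in edgeR), that of Bhmt2 1.63 (0.271 and 0.0227) and that of Dmgdh 1.58 (0.177 and 0.0101). The TKO clones of Dmgdh, at 42.1 to 108 counts, lay above all Ctrl clones, at 13.5 to 37.4, as for 4.1% of all records.

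These genes are neighbours on mm9 chromosome 13, Bhmt from 94386846 to 94407916, Bhmt2 from 94425675 to 94444257 and Dmgdh from 94444388 to 94522786. All were counted at low levels, and how reads shared by paralogs were counted is not stated. The calls of these neighbours may therefore not be separate findings. Grhpr, which reduces glyoxylate and is named after its values were seen, averaged 1214 ± 95.3 counts over the Ctrl clones and 1722 ± 295 over the TKO clones (SD, n = 4; log2 difference 0.51, adjusted p = 0.202 without and 0.0352 with the series in edgeR). Glyatl3, a glycine acyltransferase gene, had 19.7 ± 13.4 and 3.00 ± 2.47 counts (-2.74, 0.171 and 0.0455).

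Among 14 tested genes of the methionine cycle, Mat2a, which makes S-adenosylmethionine, had 11160.1, 12352, 23376 and 21059 normalized counts in Ctrl 33, 34, 41 and 43, and 6517, 7205, 10365 and 13164 in TKO 35, 37, 47 and 48. Mat2a was higher in the forties series, as Tdh was, and lower in TKO clones within each series, as for 11.5% of all records. TKO 48 lay above Ctrl 33 and Ctrl 34. The log2 difference was -0.87 (SE 0.29, adjusted p = 0.246 without and 0.00312 with the series in edgeR), and Mat2a was 0.85 higher on the log2 scale in the forties than in the thirties series (SE 0.10, adjusted p = 0.00102). Of 13 genes of purine synthesis, which uses folate-bound carbons and glycine, Pfas was called lower with the series, from 7426 ± 645 to 5445 ± 257 counts without overlap (-0.45, adjusted p = 0.0971 without and 0.0222 with the series). The TKO clones lay below all Ctrl clones in 4.23% of all records.

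**Figure D4:**
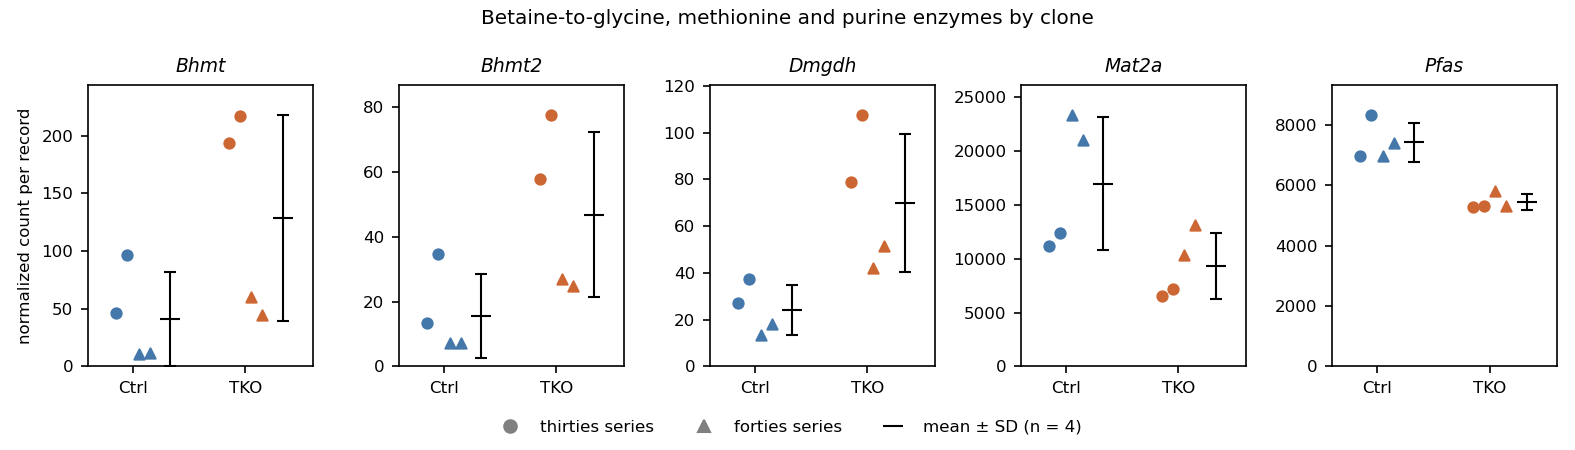
Normalized counts (linear, from 0) of Bhmt, Bhmt2, Dmgdh, Mat2a and Pfas in each Ctrl and TKO clone, with the mean and SD of 4 clones per genotype. Dmgdh and Pfas show no overlap between the genotypes, while Bhmt (higher in the thirties series) and Mat2a (higher in the forties) also differ between the series within each genotype.

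Slc38a2, a transporter of neutral amino acids including serine, averaged 8605 ± 1002 normalized counts over the Ctrl clones and 6498 ± 1508 over the TKO clones (SD, n = 4; log2 difference -0.41, adjusted p = 0.303 without and 0.0385 with the series in edgeR), and was the 1 gene besides the enzymes called in the lists of serine and of folate metabolism. Of 20 genes of the amino acid response, 1 was called with the series, Ddit3, the stress-induced factor CHOP, at 518 ± 175 and 849 ± 361 counts (0.72, 0.346 and 0.0131). It lies 221 kb from Shmt2, in whose surroundings 1 record of Naca (-0.57), Stat2 (0.74) and Ndufa4l2 were also called with the series. With Ddit3 these were 4 of the 64 tested records within 1 Mb of Shmt2, where 5.7% of all records were called in that model. Ndufa4l2, a mitochondrial protein gene that overlaps Shmt2, had 55.8 and 289 counts (2.42, adjusted p = 0.126 without and 0.0284 with the series in edgeR). Of 20 cytosolic aminoacyl-tRNA synthetases 1 was called with the series, Cars, at 4749 ± 265 and 6442 ± 888 counts (0.44, 0.171 and 0.0385), and 16 of the 20 had a positive log2 difference against 8038 of 16235 records.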

How the data were processed

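RNA-seq counts of 8 mouse iPSC clones were analysed, 4 Ctrl and 4 TKO. Libraries were prepared by TruSeq RNA chemistry and sequenced in 50 single-end cycles. The authors aligned them to the mm9 transcriptome using BWA (0.7.5a, per the submitters' processing notes) and deposited whole-number read counts per RefSeq record, without scaling. Their rule for reads matching several records, and for strand, is not given in the sources used here. Depth is 8983203 to 52457455 counts per library, and among the 10 enzymes counts limit precision most for Aass in TKO clones.

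Symbols came from a RefSeq table for GRCm38.p6, used for names only (26321 records named, 731 not), and mm9 coordinates from GENCODE (13945 tested records). Size factors followed the median-ratio method, the filter asked for 5 or more reads in 4 or more libraries, and TKO was compared with Ctrl by edgeR 4.0.16 (glmQLFit and glmQLFTest, R 4.3.3) with Benjamini-Hochberg adjustment over all 16235 records at 0.05. The filter and scaling follow the study's methods. A second model added the clone series, and another had 1 group per genotype and series. Alternatives were TMM scaling, other filters, limma-voom 3.58.1, DESeq2 1.42.0, edgeR's exact test, each series alone, counts summed per symbol and leaving out each clone. Summing the closest pairs of libraries, and leaving out clones in the interaction test, were added after seeing the data. Correlations used log2(normalized count + 1) and exact two-sided permutation tests. The steps were tested on simulated counts. There edgeR's test of TKO against Ctrl called 2 of 66 records changed 1.5-fold, 34 of 64 changed 2.5-fold and 60 of 66 changed 5-fold. Its interaction test called 2 of 65 changed 2.5-fold and 26 of 65 changed 5-fold. Of 15790 unchanged records simulated for TKO against Ctrl, the quasi-likelihood test called 7, DESeq2 37 and edgeR's exact test 28. Calls made only by DESeq2 or the exact test may thus hold more false ones. The counts simulated for TKO against Ctrl held no effect of the clone series, so the model with the series was not tested under one.

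The enzymes and gene lists were chosen with earlier results of these data known. Named were all 10 enzymes, up to 4 called genes of each list (with or without the series, largest change first) or else its 2 most expressed, the 5 records most like Aass and the 5 most like Tdh, records called within 1 Mb of an enzyme, and the targeted *Piwi* genes. The labels call the clones biological replicates without saying whether they came from separate embryos, so p-values measure the spread between these clones.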

Additional observations from a re-analysis of the deposited data

Results flagged for a closer look

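Among 44 groups of 4 clones checked for a clone far from the rest (22 genes in each genotype), 2 held one, where chance alone gives about 1 in 20. TKO 47 was the highest TKO clone of Pfas at 5830.0 normalized counts (gap of 0.936 of the group's range), and TKO 48 of Cars at 7763 (0.857). Neither gap brought the clone to the other genotype.

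The genotype difference of Gldc changed sign between the clone series, a shift of -0.82 on the log2 scale (forties minus thirties, adjusted p = 0.0623 in edgeR's interaction test), with every TKO clone above every Ctrl clone in the thirties and below in the forties series. That of Mthfd2 changed sign in the other direction, a shift of 0.44 (adjusted p = 0.110). Neither passed the test.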

How the results depend on the processing

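The difference in Aass kept its size under all alternatives, with log2 differences from -4.29 to -3.82. The 39 records called became 513 with DESeq2, 218 with edgeR's exact test, 926 with the clone series in the model, 1016 for the thirties and 242 for the forties clones alone, and 12 with the closest pairs of libraries summed. Leaving out 1 clone gave 15 (without Ctrl 41 or TKO 35) to 86 (without TKO 48), and with the series in the model 91 (without TKO 37) to 1623 (without TKO 48). Of the 9 enzymes other than Aass, where 0 were called, 2 were with the series, 1 in the thirties alone (Gldc) and 1 in the forties alone (Shmt2), and 0 to 3 with the series and 1 clone left out. Of the other pathway genes, where 0 were called, DESeq2 called 6, the exact test 4, the model with series 12, the thirties alone 16 and the forties alone 9, with 0 to 18 when 1 clone was left out. The 211 records with a difference between the series became 914 with DESeq2 and 671 without a filter, and 1 to 1314 without 1 clone, with 1 or 2 without Ctrl 41, Ctrl 43, TKO 35 or TKO 37, and 52 without TKO 48.

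Signs reversed for Gldc in the forties alone (-0.18), for Shmt2 (-0.11) and Mthfd2 (-0.12) in the thirties alone, and for Gcsh with limma-voom (-0.017), in the thirties alone (-0.10) and without some clones (-0.084 to 0.095 over all). The difference between the series reversed for Tdh without Ctrl 34, Ctrl 43, TKO 35 or TKO 48 (-0.28 to 0.21 over all clones left out) and for Shmt1 without Ctrl 33 (-0.20 to 0.048). The causes were not tested. Each series alone leaves 2 clones against 2. No paired analysis was possible because Ctrl and TKO clones have no number in common. TMM scaling, a stricter filter and counts summed per symbol changed no call among the named genes, and without a filter the series difference passed for Gldc (adjusted p = 0.0114) and Shmt2 (0.0453).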
